A study of Rattus norvegicus with 6 samples.

Results

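10 genes of the gp130 cytokine pathway were followed in rat brain RNA after neonatal hypoxia-ischemia (HI), an injury in which a reduced blood supply is combined with low oxygen. They were the rows of the deposited count table whose symbols are Cntf, Lif and Osm (ligands), Osmr, Lifr, Il6st, Il6r and Cntfr (receptor subunits), Stat3 (a transcription factor) and Socs3 (its feedback inhibitor). All 10 of 10 were found among 19382 genes, and 8 had enough reads to enter the test, which ran on 14959 genes. The HI group held 3 libraries of brain tissue from SD rats injured for 2.5 h at 7 days of age, and the control group held 3 libraries labelled only as control treatment. The labels give no genotype, sex, brain region or interval between injury and sampling, and neither the age of the controls nor whether they had sham surgery. Nothing states that each library is a different animal, and the p-values below reflect the spread between these samples, part of which may be technical.

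Cytokines of this family act through receptor complexes built around gp130, the signalling subunit encoded by Il6st. Interleukin-6 first binds its own receptor, Il6r, CNTF binds Cntfr, LIF pairs gp130 with Lifr, and oncostatin M (Osm) pairs it with Osmr or, in some species, Lifr. The assembled complex activates JAK kinases, which phosphorylate STAT3, and STAT3 induces SOCS3, an inhibitor that binds gp130 and the kinases and ends the signal. In the brain the pathway is known for its part in the reaction of astrocytes to injury.

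Libraries held 13922663 to 14927469 estimated reads. Levels are given as CPM, counts scaled to library size and TMM factor, and the limit set by a count of 0, taken as 3 reads, corresponded to 0.182 to 0.227 CPM. Tissue content differed between libraries. The summed level of 10 choroid plexus markers was 31.9, 2360 and 34.5 CPM in controls 1, 2 and 3 and 227, 8550 and 15900 CPM in HI 1, 2 and 3. For 10 markers of cortical excitatory neurons it was 2890, 3370 and 988 CPM in the control libraries and 216 to 361 CPM in HI, so control 3 stood apart from the other controls. Reads of Y-linked genes were at most 3 in controls 1 and 2 and HI 1 and at least 2296 in control 3, HI 2 and HI 3. Markers of brain tissue were present in every library, with a summed level of 10 neuron markers between 2890 and 9020 CPM.

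Of the 8 tested genes 3 rose in HI: the receptor subunit Osmr 6.27-fold, Stat3 2.17-fold and Socs3 7.11-fold. No member fell by the test. The median log2 fold change of the 8 was 1.06, against 0.038 over all tested genes. Among all tested genes 13.9% passed the test in either direction, 6.83% as higher and 7.04% as lower in HI (edgeR quasi-likelihood test with an adjusted p under 0.05). The groups did not overlap for 6 of the 8, all higher in HI, whereas 42.3% of all tested genes had groups apart, 21.5% with HI higher and 20.8% with HI lower. The members were chosen with earlier results of these data known, so their counts and median are a description. In bulk tissue, more RNA per cell and more cells of an expressing type cannot be told apart.

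**Figure D1:**
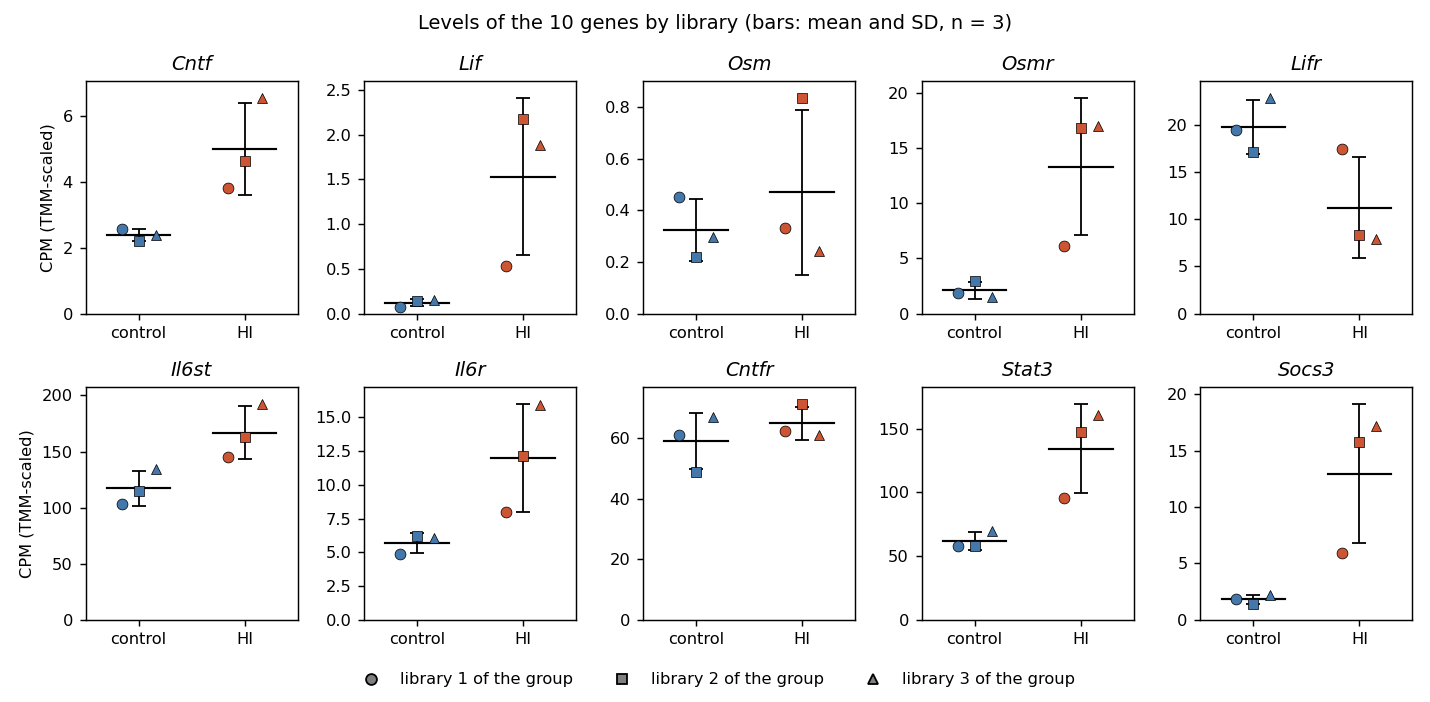
Levels in CPM (vertical axis, from 0) of each of the 10 genes in the 3 control (blue) and 3 HI (red) libraries, with the group mean and SD as bars and marker shape giving the library number. Cntf, Lif, Osmr, Il6st, Il6r, Stat3 and Socs3 are higher in all 3 HI libraries than in any control. Lifr is lower in HI 2 and HI 3 but not in HI 1, and Osm and Cntfr overlap between the groups.

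Of the ligands, Lif had very few reads in controls, with 1, 2 and 2 reads in controls 1, 2 and 3 and 8, 34 and 31 in HI 1, 2 and 3. All 3 HI libraries were above all 3 controls, but the gene had too few reads to enter the test. Pooled over each group, 73 HI reads against 5 control reads gave a 12.5-fold ratio (exact 95% interval 5.11 to 39.5, which covers counting error only). The control level lay under the 3-read limit in each control, so the size of that ratio is uncertain. In the edgeR fit without a filter, where 9.61% of genes passed, Lif had a log2 fold change of 3.49 ± 0.72 (SE) and an adjusted p of 0.034. Without HI 1 it entered the test through its HI reads and was called (edgeR adjusted p = 0.011, where 24.2% of genes passed), and without control 1, 2 or 3 it entered and was not (edgeR adjusted p = 0.114, 0.112 and 0.0597). Lif encodes leukemia inhibitory factor, a cytokine known to be induced in injured nervous tissue.

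Osm, made mainly by myeloid cells and lymphocytes, had 6, 3 and 4 reads in the control libraries and 5, 13 and 4 in HI. The groups overlapped, and only HI 2 exceeded the highest control. Pooled, 22 reads against 13 gave a ratio of 1.44 (exact 95% interval 0.696 to 3.12), and without a filter the edgeR adjusted p was 0.648, so no difference could be detected with so few reads.

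Cntf, a factor of astrocytes and Schwann cells that supports neurons, had 34, 30 and 32 reads in the control libraries and 57, 72 and 108 in HI. This corresponded to 2.39 ± 0.18 and 4.99 ± 1.40 CPM (SD, n = 3 per group). All HI libraries were above all controls, yet the log2 fold change, 1.06 ± 0.29, missed the threshold (edgeR adjusted p = 0.0548). It was called without HI 1 (edgeR adjusted p = 0.0338) and by DESeq2 (adjusted p = 0.0187), when 24.2% and 28.1% of all genes passed. It was also called in edgeR with upper-quartile or total-count scaling (adjusted p = 0.0472 and 0.0386). On the log2 scale these scalings shift the median gene by 0.10 and 0.19. Cntf missed by limma-voom (adjusted p = 0.0727) and with Y-linked reads as a term (edgeR adjusted p = 0.122). Without each library in turn other than HI 1 it missed as well (edgeR adjusted p from 0.104 to 0.162). It was called in 5 of 19 other settings.

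Among the receptor subunits the strongest contrast lay between Osmr and Lifr, the alternative partners of gp130. Osmr stood at 1.89, 2.95 and 1.5 CPM in controls 1, 2 and 3 and at 6.15, 16.8 and 17.0 CPM in HI 1, 2 and 3. The lowest HI library was thus above the highest control, and HI 2 and HI 3 were close to each other and well above HI 1. The log2 fold change was 2.65 ± 0.48 (edgeR adjusted p = 0.0266). Lifr, by contrast, stood at 19.4, 17.1 and 22.8 CPM in the control libraries and at 17.4, 8.35 and 7.94 CPM in HI. HI 1 lay within the range of the controls, whereas HI 2 and HI 3 were at 0.423 and 0.402 of the control mean. Over all libraries its log2 fold change, -0.82 ± 0.33, missed the threshold (edgeR adjusted p = 0.13), while without HI 1 it was -1.28 and passed (edgeR adjusted p = 0.015). That fit called 24.2% of all genes and left out the HI library in which Lifr lay within the control range.

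The shift between these receptors was also read as a ratio within each library, which needs no scaling between libraries. Gene lengths are not taken into account, so the ratio shows only how the balance moved, not which receptor is more abundant. There were 10.2, 5.80 and 15.2 reads of Lifr for each read of Osmr in controls 1, 2 and 3, and 2.83, 0.498 and 0.468 in HI 1, 2 and 3. The log2 ratio of Osmr to Lifr rose from -3.27 ± 0.70 to 0.20 ± 1.47 (SD, n = 3 per group), a difference of 3.47, or 11.1-fold, with no overlap between groups. The two-sided exact permutation p of this difference was 0.1, the smallest that 3 against 3 libraries allow, and 0.12 after adjustment over the 6 ratios computed. Without HI 1 the difference was 4.32. In HI 1, where Lifr lay within the control range, the ratio moved with Osmr.

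The shared subunit Il6st was at 103, 115 and 134 CPM in the control libraries and at 145, 163 and 192 CPM in HI. The groups did not overlap, and the log2 fold change of 0.51 ± 0.15, the smallest of the 6 tested members with separated groups, missed the threshold (edgeR adjusted p = 0.0653). It passed without HI 1 (edgeR adjusted p = 0.0424) and by DESeq2 (adjusted p = 0.0193), when 24.2% and 28.1% of all genes passed. It also passed with upper-quartile or total-count scaling in edgeR (adjusted p = 0.0461 and 0.0384). It missed by limma-voom (adjusted p = 0.0749) and with Y-linked reads as a term (edgeR adjusted p = 0.091). Without each library in turn other than HI 1 it missed as well (edgeR adjusted p from 0.0617 to 0.207). Il6st was called in 6 of 19 other settings. Relative to Il6st, the log2 ratio of Osmr was higher in HI by 2.06 and that of Lifr lower by a difference of -1.41. For both, HI and control libraries stood apart (exact permutation p = 0.1 each, adjusted 0.12). In HI 1 Lifr itself lay within the control range, so its lower ratio there came with the higher Il6st. The ratios share genes and are not independent of each other.

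Il6r, which gives a cell direct sensitivity to interleukin-6, was at 4.85, 6.18 and 6.06 CPM in the control libraries and at 7.96, 12.1 and 15.9 CPM in HI. All HI libraries were above the controls, by 1.07 ± 0.29 on the log2 scale, which missed the threshold (edgeR adjusted p = 0.054). It was called without HI 1 (edgeR adjusted p = 0.0198) and by DESeq2 (adjusted p = 0.00944), when 24.2% and 28.1% of all genes passed. It was also called with upper-quartile or total-count scaling in edgeR (adjusted p = 0.0457 and 0.0386). It missed by limma-voom (adjusted p = 0.0815) and with Y-linked reads as a term (edgeR adjusted p = 0.113). Without each library in turn other than HI 1 it missed as well (edgeR adjusted p from 0.0952 to 0.164). Il6r was called in 5 of 19 other settings. The span of Il6r overlaps that of She in the reference gene table, and that of Il6st overlaps a noncoding gene. As the treatment of strand in counting is not given in the sources used here, reads of Il6r and She may be mixed. She had 65, 84 and 74 reads in the control libraries and 58, 191 and 214 in HI. Il6r had 64, 84 and 81 reads in the control libraries and 119, 188 and 262 in HI. The counts of both genes were thus close in the controls and in HI 2, and both were higher in HI 3. In HI 1 She, unlike Il6r, lay below all its controls. How far reads were shared was not tested.

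Cntfr, the CNTF-binding subunit of neurons, was at 61.2, 48.9 and 67.1 CPM in the control libraries and at 62.4, 71.2 and 61.2 CPM in HI. The groups overlapped, and the log2 fold change was 0.14 ± 0.14 (edgeR adjusted p = 0.521). Its sign turned without control 2, to -0.013. The ratios of Il6r and Cntfr to Il6st differed between HI and control by 0.52 and -0.36 on the log2 scale, the former with separated groups (exact permutation p = 0.1, adjusted 0.12) and the latter with overlap (exact permutation p = 0.3).

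**Figure D2:**
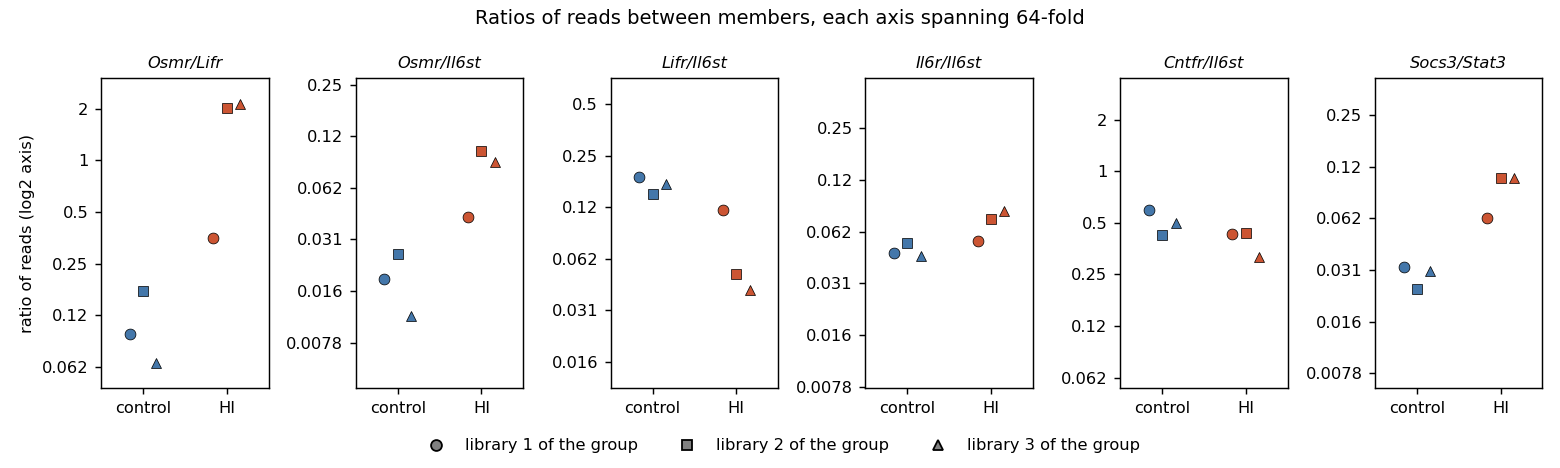
Ratios of reads between pairs of genes (log2 axis, each panel spanning 64-fold) in the 3 control (blue) and 3 HI (red) libraries. Osmr/Lifr moves furthest, by 11.1-fold between group means, and only Cntfr/Il6st overlaps between groups.

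Downstream of the receptors, Stat3 was at 57.9, 57.8 and 70.0 CPM in the control libraries and at 95.3, 147 and 161 CPM in HI. All HI libraries lay above all controls, and the log2 fold change was 1.12 ± 0.21 (edgeR adjusted p = 0.0274). Socs3, the inhibitor that STAT3 induces, went from 1.89, 1.40 and 2.17 CPM in the controls to 5.95, 15.8 and 17.2 CPM in HI. Its log2 fold change of 2.83 ± 0.46 was the largest of the tested members (edgeR adjusted p = 0.0233), and the control reads behind it numbered 19 to 29 per library. The log2 ratio of Socs3 to Stat3 rose by 1.63, or 3.09-fold, with separated groups (exact permutation p = 0.1, adjusted 0.12).

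Leaving out single libraries moved the log2 fold changes to between 2.41 and 2.99 for Osmr, 0.97 and 1.31 for Stat3 and 2.57 and 3.17 for Socs3, but ended calls. Without control 1, control 2 or HI 2 none of Osmr, Stat3 and Socs3 passed (edgeR adjusted p from 0.0832 to 0.106), in fits where 0, 1 and 0 genes of the whole table were called, with 3962, 4008 and 4175 at an unadjusted p under 0.05. Without HI 3 Socs3 passed (edgeR adjusted p = 0.048) while Osmr and Stat3 missed it (0.0596 and 0.0599). By DESeq2, which called 28.1% of all genes, the adjusted p of the 3 was 5.5e-06, 3.72e-05 and 3.46e-07. By limma-voom, which called 9.17%, Stat3 passed (adjusted p = 0.0382) and Osmr and Socs3 did not (0.0557 and 0.0521). Their log2 fold changes were positive in each of these fits, a direction that the separated groups already fix.

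The members that changed did so least in HI 1 and most in HI 2 and HI 3. Relative to the control mean, Osmr was 2.91-fold, 7.94-fold and 8.03-fold higher in HI 1, 2 and 3, and Socs3 3.27-fold, 8.68-fold and 9.45-fold. Stat3 followed with 1.54-fold, 2.37-fold and 2.60-fold. HI 2 and HI 3 are also the libraries with the highest choroid plexus markers and, unlike HI 1, with Y-linked reads, whereas HI 1 stood apart by its hypothalamus markers, with a summed level of 250 CPM against 4.34 to 32.0 CPM elsewhere. The part of tissue content in these differences was not tested, and that of Y-linked reads only as a term of the fit. In HI 1, set against controls 1 and 3 alone, the libraries with little choroid plexus signal, the fitted log2 differences were 1.85 for Osmr, 0.57 for Stat3 and 1.54 for Socs3. That fit has a lone HI library, assumed to vary like the controls, and called 0 genes by edgeR, with 1552 at an unadjusted p under 0.05. Among libraries without Y-linked reads (1 HI, 2 controls) the log2 difference of Osmr was 1.35 and that of Socs3 1.85, and among those with them (2 HI, 1 control) 3.49 and 2.93, each with a lone library on one side. With Y-linked reads as a second term Stat3 and Socs3 still passed (edgeR adjusted p = 0.0337 for both) and Osmr did not (0.0719), when 5.17% of all genes passed. The log2 fold changes of Stat3, Socs3 and Osmr in that fit were 0.93, 2.38 and 2.37.

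**Figure D3:**
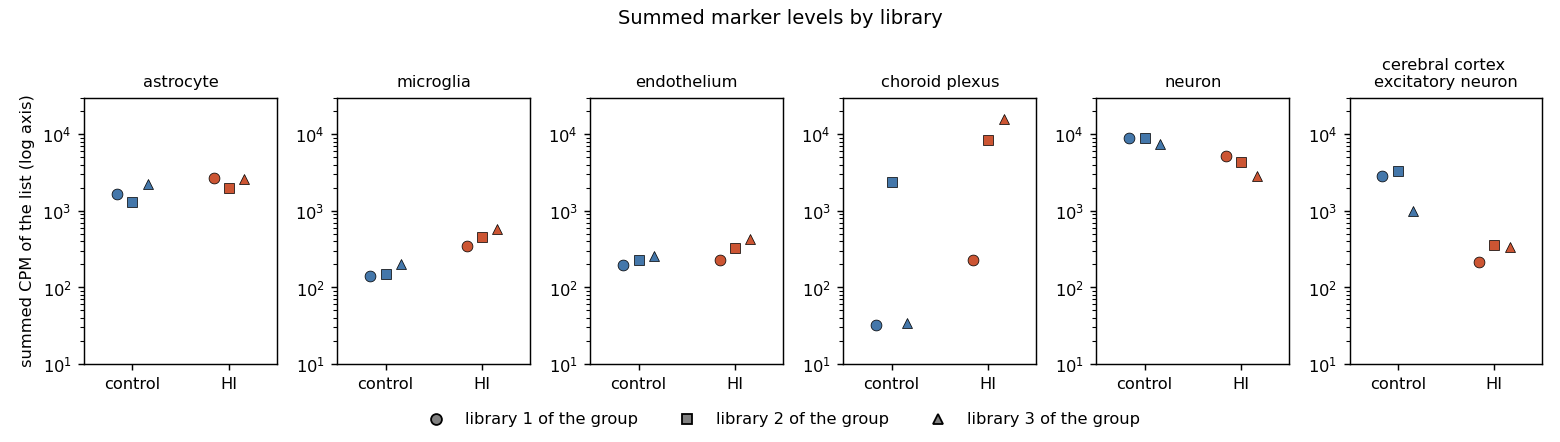
Summed CPM (log axis) of 6 marker lists in the 3 control (blue) and 3 HI (red) libraries. Choroid plexus markers range from 31.9 to 15900 CPM and are high in control 2, HI 2 and HI 3, whereas astrocyte markers lie between 1290 and 2660 CPM in all libraries.

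Markers of several of the cells that could carry these transcripts moved as well. For comparison, 6.83% of all tested genes were called higher and 7.04% lower, so a count of 1 of 9 or 1 of 10 does not set a list apart. The summed level of 10 astrocyte markers was 1290 to 2260 CPM in the control libraries and 2010 to 2660 CPM in HI, and 1 of 10, Aqp4, rose. That of 10 microglia markers was 140 to 205 CPM in the control libraries and 349 to 584 CPM in HI, and 8 of 10 rose. For 10 endothelial markers the ranges were 195 to 258 and 226 to 424 CPM, with 1 of 10 higher, and for 9 mural and fibroblast markers 95.9 to 233 and 209 to 574 CPM, with 1 of 9 higher. Neuron markers went from 7400 to 9020 CPM in the controls to 2890 to 5160 CPM in HI, and 4 of 10 fell. Markers of blood leukocytes summed to 6.81 to 6.99 CPM in controls and 25.3 to 52.8 CPM in HI, with 2 of the 2 tested higher, but the T-cell receptor genes Cd3d, Cd3e and Cd3g, the B-cell gene Ms4a1 and the neutrophil genes Ltf and Camp had at most 1 read in any library. Ependymal markers summed to 22.4 to 45.6 CPM in controls and 82.6 to 205 CPM in HI, with 2 of 6 higher, and border macrophage markers to 9.77 to 20.1 and 20.0 to 63.0 CPM, with 2 of the 5 tested higher. The part of cell content in the changes of the 10 genes was not tested.

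The other ligands and receptors of the family were examined as a list of 11, of which 10 had a row and 6 could be tested. Only Il11ra1, the interleukin-11 receptor subunit, passed, rising from 9.49 ± 0.92 to 21.1 ± 8.56 CPM (edgeR adjusted p = 0.0499). It was lost without each library in turn other than HI 1 (edgeR adjusted p from 0.073 to 0.15). With all libraries kept it was also lost by limma-voom (adjusted p = 0.0802). The same held in edgeR without a filter and with Y-linked reads as a term (adjusted p = 0.0542 and 0.1). It was called in 7 of 19 other settings. The list's median log2 fold change was 1.09, and 13.9% of all tested genes passed in either direction. The ligands Ctf1 (cardiotrophin-1) and Clcf1 had log2 fold changes of 1.27 ± 0.46 and 2.16 ± 0.91, and neither passed. Without control 3 the value of Clcf1 was 3.57 (edgeR adjusted p = 0.0691), and with controls 1 and 3 and HI 1 only it was 0.000247. Clcf1 had 3, 1 and 13 reads in the control libraries and 9, 37 and 46 in HI. Without control 3 it thus entered the fit through its HI reads, and the size of its value there is uncertain. Ebi3, a subunit shared by cytokines related to interleukin-12, and the receptor Il27ra had log2 fold changes of -0.72 ± 0.25 and 1.04 ± 0.72. Both missed the threshold (edgeR adjusted p = 0.0938 and 0.335). Without control 3 the value of Il27ra was 2.2 (edgeR adjusted p = 0.0698), and without control 1 it was 0.54. Il6 itself had 1, 0 and 0 reads in the control libraries and 1, 2 and 3 in HI, too few to detect a difference.

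Of 14 tested JAK and STAT signalling genes 3 rose and 0 fell, with a median log2 fold change of 0.37. Over all tested genes 6.83% were called higher and 7.04% lower. Jak3, a kinase found mainly in leukocytes, rose from 5.61 ± 0.60 to 19.6 ± 7.24 CPM. The adaptors Shc1 and Gab1, which link cytokine receptors to the MAP kinase pathway, rose 2.27-fold and 1.71-fold. The log2 fold changes of Stat2 and Stat5a, 0.92 ± 0.29 and 0.93 ± 0.31, missed the threshold (edgeR adjusted p = 0.0774 and 0.084). Stat5a had counts that were not whole, so its reads may be divided with a similar gene and its value is uncertain. For the 3 that rose, edgeR gave adjusted p of 0.0258 to 0.0386. The count was 0 without control 1, control 2, HI 2 or HI 3, and 5 without HI 1, when 24.2% of all genes passed. DESeq2 called 6, when 28.1% of all genes passed, and limma-voom 2, when 9.17% passed.

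Among 17 inhibitors, phosphatases and sheddases of the pathway 2 rose and 0 fell, with a median log2 fold change of -0.11. Over all tested genes 13.9% passed in either direction, so this count does not set the list apart. Ptpn6, a phosphatase of blood cells and microglia, rose from 4.85 ± 1.34 to 23.3 ± 7.11 CPM (edgeR adjusted p = 0.0215), and Adam17, a protease that releases the extracellular part of the interleukin-6 receptor, from 24.7 ± 3.28 to 44.9 ± 7.02 CPM (edgeR adjusted p = 0.0282). The other SOCS genes did not rise with Socs3 by the test. Socs2 had 15.8 ± 4.33 CPM in controls and 9.81 ± 1.41 CPM in HI, and Socs7 220 ± 17.8 and 165 ± 25.7 CPM, with edgeR adjusted p of 0.101 and 0.0902. Ptpn1 had a log2 fold change of -0.37 ± 0.13 (edgeR adjusted p = 0.0877). Neither Ptpn6 nor Adam17 was called without control 1, control 2 or HI 2, and without HI 3 Ptpn6 was called and Adam17 was not. DESeq2, which called 28.1% of all genes, called 2 of the list higher and 2 lower, the latter Ptpn1 and Socs7 (adjusted p = 0.04 and 0.044). Without control 3 edgeR called 2 lower, Adam10, another sheddase, and Socs2 (adjusted p = 0.0403 for Socs2), and without HI 1 it called 1 lower, Socs7 (adjusted p = 0.0497).

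Known STAT3 target genes formed the list with the most calls, 11 higher and 0 lower of 25 tested. Their median log2 fold change was 1.85, against 0.038 over all tested genes, of which 6.83% were called higher and 7.04% lower. The list was chosen with earlier results of these data known, so these counts are a description. Gfap, the astrocyte intermediate filament, was at 146, 143 and 136 CPM in the control libraries and at 937, 1400 and 2310 CPM in HI. Vim, another intermediate filament of reactive astrocytes, rose 10.4-fold, Timp1, an inhibitor of matrix metalloproteases, 12.5-fold, Cp, a ferroxidase, 6.68-fold and Cd14, a lipopolysaccharide co-receptor of phagocytes, 12.7-fold. The adjusted p of these 5 genes was 0.0196 to 0.0215 by edgeR, and their groups did not overlap. The other called targets were Cebpd, Cebpb, Bcl3, Icam1, Il4r and A2m, of which Bcl3 had under 10 reads in every control and passed the filter through its HI reads. Several of these genes are also known to be induced by other factors or made by microglia, whose markers were higher in HI, and the part of either was not tested. DESeq2 called 14 higher and 1 lower, limma-voom 6 and 0, and edgeR 0 without control 1, control 2 or HI 2, 7 without HI 3, 9 higher and 1 lower without control 3, and 19 of 28 without HI 1, when 24.2% of all genes passed. Serpina3n, Lrg1 and Fgg entered that last fit, and with Lbp the fit without control 3, through their HI reads, having under 10 reads in every control.

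**Figure D4:**
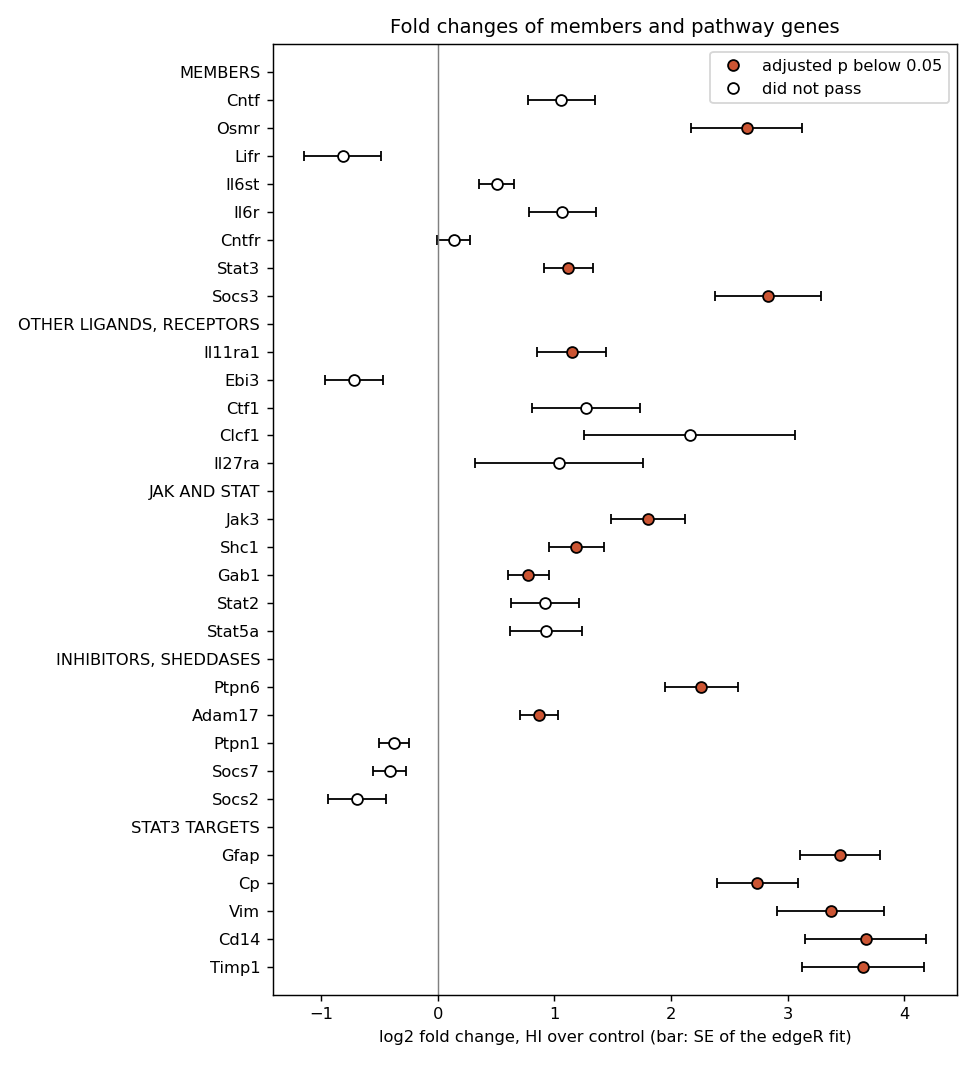
Log2 fold changes, HI over control (horizontal axis, bars are SE of the edgeR fit), of the 8 tested members and of the 5 genes with the smallest p in each pathway list. Filled points passed an adjusted p of 0.05, and Socs3 and Osmr lie near 2.83 and 2.65, close to Cp at 2.74.

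The genes whose pattern over the 6 libraries was most like that of a member were found by the root mean square difference of log2 (CPM + 0.5) after subtracting each gene's control mean, over 14553 genes with a mean of at least 1 CPM. Nearest to Osmr were Cxcl16 (0.15), a chemokine of phagocytes, Tubb6 (0.17), a tubulin isotype, and S1pr3 (0.19), a sphingosine 1-phosphate receptor. Socs3 was closest to Tmbim1 (0.095), Mvp (0.13), the major vault protein, and Ripk3 (0.15), a kinase of necroptosis. For Stat3 the nearest were Lpp (0.046), Myh14 (0.067), a nonmuscle myosin, and the zinc transporter Slc39a1 (0.076). For Il6st they were Hadhb (0.027), an enzyme of fatty acid oxidation, Tmem59 (0.044) and Ints4 (0.050). With total-count scaling the same 12 genes were found.

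Since several members were higher together in HI, the 250 bases before the start of each gene were searched for the STAT motif TTCNNNGAA, whose fixed letters read the same on both strands. RefSeq promoters of assembly GRCr8 were at hand for 7 of the 10 genes, all but Cntfr, Lif and Osm. None of the 7 held the motif in this window, as against 7.67% of 33469 promoters, and nothing about STAT3 binding elsewhere follows from that. The starts in the table for Socs3, Il6st and Lifr may not be the main transcription starts of these genes, so their windows may not be the promoters in use. After this outcome was known, the AP-1 motif TGANTCA, the CRE motif TGACGTCA and the Sp1 motif GGGCGG were searched on both strands. TGANTCA was present in Osmr and Cntf, in 6.34% of all promoters, starting 33 and 72 bases before the start. GGGCGG was present in Osmr, Lifr and Il6r, in 30.5% of all promoters, and TGACGTCA in none of the 7, in 1.59% of all. The windows of the Osmr and Cntf genes are shown with TGANTCA in capitals, and that of Stat3, which held none of the motifs, for comparison. They lie at chr2:57688562-57688811, chr1:219314536-219314785 and chr10:86363360-86363609 of GRCr8, each on the minus strand, and are written 5′ to 3′.
Osmr: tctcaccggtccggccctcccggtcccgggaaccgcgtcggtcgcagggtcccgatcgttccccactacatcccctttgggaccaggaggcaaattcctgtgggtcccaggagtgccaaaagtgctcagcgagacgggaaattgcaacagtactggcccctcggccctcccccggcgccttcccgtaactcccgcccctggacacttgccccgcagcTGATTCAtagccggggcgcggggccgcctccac
Cntf: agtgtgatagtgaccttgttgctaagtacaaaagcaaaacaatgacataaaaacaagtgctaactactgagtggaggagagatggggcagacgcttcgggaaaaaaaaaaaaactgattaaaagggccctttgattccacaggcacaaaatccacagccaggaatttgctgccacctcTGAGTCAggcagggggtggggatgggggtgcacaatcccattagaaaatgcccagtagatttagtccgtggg
Stat3: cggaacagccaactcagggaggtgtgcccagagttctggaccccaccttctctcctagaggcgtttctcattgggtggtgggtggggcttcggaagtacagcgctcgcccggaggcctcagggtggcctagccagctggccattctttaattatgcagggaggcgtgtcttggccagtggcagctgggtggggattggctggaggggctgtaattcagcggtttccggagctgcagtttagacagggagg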

How the data were processed

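RNA of rat brain tissue was extracted with TRIzol and made into libraries with a SMARTER kit, per the labels' protocols. HISAT2 2.1.0, SAMtools 1.10, StringTie 2.2.1 and Rnor 6.0 were used, per the submitters' processing notes. The counter, its annotation and its handling of strand and shared reads are not stated, and thus not given in the sources used here. Values are the read counts the authors deposited, as estimated counts per gene, unscaled, for 19382 genes. Fractions beyond a tolerance of 1e-09 were found in 8.87% of entries, but each member's reads were whole.

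Columns were matched to samples by title (control 1 is misspelled in the header). Counts were rounded, filtered with filterByExpr (minimum count 10), TMM-scaled and tested with edgeR 4.0.16 (R 4.3.3, two-sided quasi-likelihood, group as the only term, Benjamini-Hochberg over 14959 genes, threshold 0.05). The SE came from the F statistic. No library pair was a duplicate (chi-square per degree of freedom 13.4 to 162). On data simulated for this comparison (15091 genes) the fit called 100% of genes raised 4-fold and 30% of those raised 2-fold, 98% and 22.4% of those lowered to 0.25 and 0.5, and 0.0269% of unchanged genes. The simulation drew each gene independently, with a biological coefficient of variation of 0.275 for all and few genes changed. It held no difference in tissue content between libraries, which the real libraries did show, so these shares need not hold for them. Ratios used exact two-sided permutation tests. DESeq2 1.42.0, limma 3.58.1 (voom), other scalings and filters, a robust dispersion, thresholds of 0.01 and 0.1, a replicate block, a Y-linked term and leaving out each library were alternatives. A fit on libraries under 1000 CPM of choroid plexus markers and the motifs other than TTCNNNGAA were added after seeing the data.

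Named genes are the 10 members, the 5 smallest p of each pathway list and the 3 nearest to Osmr, Il6st, Stat3 and Socs3. Other called or late-entering targets, marker genes, untested ligands, Adam10 and She were named after their values were seen. Members and lists were chosen with earlier results of these data known. Gene spans came from a RefSeq table of GRCr8, which gives no transcript lengths, so levels were not compared between genes. Protein sequences were not used here, and 3 listed genes are not reported. Reads without molecular identifiers are not independent molecules.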

Additional observations from a re-analysis of the deposited data

How the results depend on the processing

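The count of members called, 3 by edgeR, was 6 with upper-quartile factors, with total counts, by DESeq2 and at a threshold of 0.1 (Osmr, Il6st, Il6r, Cntf, Stat3 and Socs3 each time), 1 by limma-voom and 0 at a threshold of 0.01. It ranged from 0 to 8 when single libraries were left out (the 8, without HI 1, include Lifr and Lif, the latter entering through its HI reads), and was 0 with controls 1 and 3 and HI 1 only. Over all genes, 2074 calls became 4200 by DESeq2, 1371 by limma-voom, 774 with Y-linked reads as a term, 0 at a threshold of 0.01 (5460 genes at an unadjusted p under 0.05) and 4366 at 0.1, ranged from 0 to 3689 when single libraries were left out, and was 0 with controls 1 and 3 and HI 1 only. Calls higher in HI made up 49.2% in the main comparison, 64.3% under upper-quartile and 74.7% under total-count scaling. Some of these settings have fewer libraries or another threshold, and the cause of the differences was not tested. The log2 fold change of Cntfr ranged from -0.013 (without control 2) to 0.20 when single libraries were left out, and was -0.041 with controls 1 and 3 and HI 1 only. The 6 ratios kept their sign with 0.5 reads added and without each library. The mean over same-numbered pairs equals the difference of means by construction, and Cntfr/Il6st differed in sign between pairs (exact sign-flip p = 0.5, against 0.25 for the other 5, the smallest that 3 pairs allow). With the replicate number as a block, 1723 genes were called and the members called were Osmr, Il6st, Stat3 and Socs3, Il6st with an edgeR adjusted p of 0.0405. The labels do not say what the numbers share. Deviations of same-numbered libraries correlated at 0.228, 0.0818 and -0.156 across genes, and those of other pairs at -0.357 to 0.328. With so few libraries these values cannot show whether same-numbered samples share more than a number. Over 19 other settings Socs3 and Stat3 were called in 13, Osmr in 11, Il6st in 6, Il6r and Cntf in 5, Lifr in 1 and Cntfr in 0. Depth limits Lif, Osm and Il6, which had too few reads to pass the main filter.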
